A study of Rattus norvegicus with 36 samples.

Results

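One gene, Nupr1, met a rule that looked for transcripts rising late in rat leg muscle and not in extraocular muscle (EOM), out of 4736 genes named by a single symbol on the array. The gene was chosen by its group means at days 14 to 45. The rule took log2 of the deposited intensities, floored at 100, and 1 probe set per gene. It asked for a leg mean at day 45 of at least 10 that stood 1.0 or more above each of the leg means at days 14, 21 and 28. It also asked that the EOM mean at day 45 be less than 0.5 above the mean of EOM days 14, 21 and 28. Pdk4, Ucp3 and Chad were left out by name. Pdk4 met the values of the rule, whereas Ucp3 and Chad missed them. So these values describe a single gene and not a group of genes, and the values at days 14 to 45 that chose it are given below with no test.

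The series holds 36 Affymetrix RG-U34A arrays of rat muscle RNA, 18 of them from EOM, the muscles that move the eye, and 18 from leg, taken as gastrocnemius and soleus together. RNA came from rats at postnatal days 0, 7, 14, 21, 28 and 45, and 3 arrays per age and muscle made 12 groups. The labels give no strain, sex, treatment or genotype and do not say whether the 3 arrays came from separate animals, so p-values speak only of the spread among these arrays, which may be technical. The leg sample mixes a mostly fast and a mostly slow muscle, and EOM samples can carry tissue of the orbit.

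Nupr1, also called p8, is a small basic protein of the nucleus that binds chromatin and acts with transcription factors. It was first described in the inflamed pancreas and is known as a gene that many cells switch on under stress, including through the transcription factor Atf4. In cultured muscle precursor cells it has been linked to the step from division to differentiation.

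The stretch of DNA just before the start of the measured transcript is shown here. RefSeq places the 250 bases before the start of Nupr1 at chr1:190645902-190646151 on the minus strand of GRCr8. They are printed in the direction of the gene, with capitals for the matches to the motifs searched.
Nupr1: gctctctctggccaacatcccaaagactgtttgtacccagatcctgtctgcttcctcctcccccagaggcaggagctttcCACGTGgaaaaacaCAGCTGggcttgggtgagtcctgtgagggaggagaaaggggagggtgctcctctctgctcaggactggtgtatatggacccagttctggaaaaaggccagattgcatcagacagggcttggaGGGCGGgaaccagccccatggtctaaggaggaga
On both strands, 7 motifs were looked for. The E box CACGTG lies 170 to 165 bases before the start, and 5.59% of 33469 promoters of the same length hold it. The E box CAGCTG, a form bound by myogenic factors, lies 156 to 151 bases before the start and occurs in 11.97% of promoters. The GC box GGGCGG lies 34 to 29 bases before the start and occurs in 30.5%. The other 4 motifs do not occur in this window. They were the TATA box TATAAA, held by 12.9% of promoters, the nuclear receptor element AAGGTCA, held by 3.99%, the TGTTCT core of glucocorticoid receptor sites, held by 17.5%, and the TGACG core of cyclic AMP response elements, held by 18.2%. None of the matches overlaps another. The array measured no binding, so a match describes the letters only.

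Nupr1 was low in leg for the first 4 weeks and high at day 45, while in EOM it was high from birth. In leg at day 0 the 3 arrays read 6.80, 6.72 and 8.60 on the log2 scale (mean 7.37 ± 1.06, SD, n = 3), and at day 7 they read 7.34, 6.64 and 8.22 (7.40 ± 0.79). Of these 6 newborn and first-week arrays, 1 lay at the floor of 6.64, and only 1 passed 8.33, the level of the filter that a probe set had to exceed on 3 of the 36 arrays to be tested. At day 14 the leg arrays read 7.26, 8.74 and 8.74 (8.25 ± 0.86). At day 21 they read 8.88, 6.64 and 9.05 (8.19 ± 1.34), with 1 array at the floor. At day 28 they read 7.30, 8.45 and 8.92 (8.22 ± 0.83). The spread was widest at day 21, from the floor to 9.05, and leg arrays of the same age differed widely before day 45.

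At day 45 the leg arrays read 10.04, 9.65 and 10.74 (10.14 ± 0.55). All 3 stood above every leg array of the earlier ages, of which the highest was 9.05. The leg mean rose by 0.84 from day 7 to day 14, moved by -0.06 and 0.03 over the next steps, and rose by 1.92 from day 28 to day 45. Against the mean of days 14, 21 and 28 the day 45 value was higher by 1.92 ± 0.46 (standard error of the fit), a difference that the rule required.

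In EOM the arrays read 9.88, 9.60 and 10.32 at day 0 (9.93 ± 0.36) and 9.95, 10.29 and 10.43 at day 7 (10.22 ± 0.25). At day 14 they read 10.47, 10.49 and 10.87 (10.61 ± 0.22). At day 21 they read 10.09, 9.07 and 10.85 (10.002 ± 0.89), the widest spread of the EOM groups. At day 28 they read 10.32, 10.48 and 10.37 (10.39 ± 0.08) and at day 45 they read 10.82, 10.86 and 10.27 (10.65 ± 0.33). All 18 EOM arrays lay above the filter level, and the 6 EOM means spanned 0.72 against 2.77 for the leg means. The EOM mean at day 45 was 0.32 ± 0.46 above the mean of days 14, 21 and 28, under the limit of the rule.

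**Figure D1:**
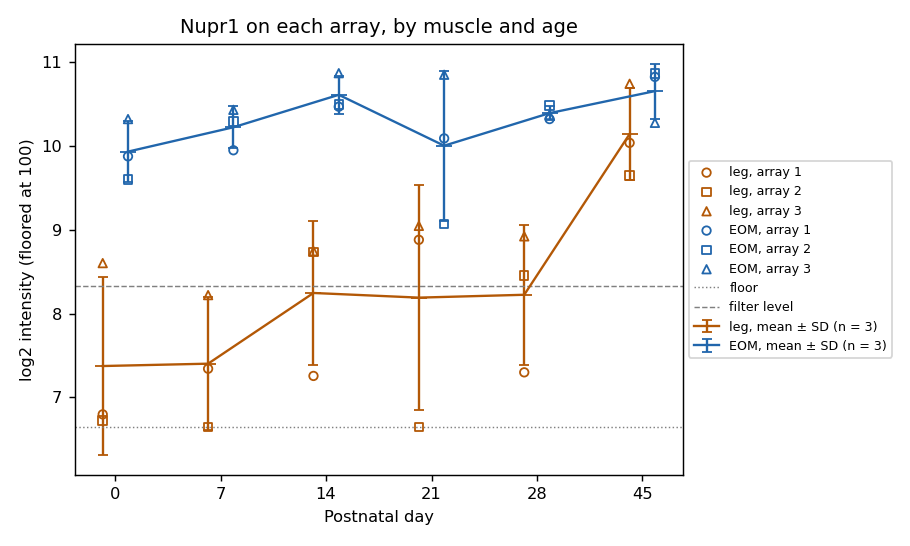
Log2 intensity of Nupr1 (vertical axis) against postnatal day (horizontal axis, ages evenly spaced) for leg (orange) and EOM (blue). Symbols are single arrays, by replicate number, lines join the means, bars are 1 SD with n = 3, the dotted line is the floor of 6.64 and the dashed line the filter level of 8.33. The leg mean stays between 7.37 and 8.25 up to day 28 and is 10.14 at day 45, while the EOM means lie between 9.93 and 10.65.

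Placed in order, EOM at days 45, 14, 28 and 7 came first, then leg at day 45, then EOM at days 21 and 0, and then the other 5 leg groups at days 14, 28, 21, 7 and 0. One step in this order was larger than the spread of the groups on either side of it, the drop of 1.69 from EOM day 0 (9.93) to leg day 14 (8.25), and the arrays of these groups did not overlap. Every other neighbouring pair differed by less than the larger of its SDs. The mean of leg at day 45 therefore lay among those of EOM.

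The limits of the rule did not use days 0 and 7, so at these ages the muscles were compared with a test. Its choice of 1 probe set per gene drew on all 36 arrays, but Nupr1 is named by 1 probe set alone. At day 0 Nupr1 was higher in EOM by 2.56 ± 0.56 on the floored log2 scale (adjusted p = 0.00278 by limma over 6667 probe sets), and the lowest EOM array stood 1.00 above the highest leg array. At day 7 it was higher by 2.82 ± 0.56 (adjusted p = 0.00145 by limma), and the gap between the arrays was 1.73. The size of these differences depends on leg arrays that were dim, since 1 of 3 passed the filter level at day 0 and 0 of 3 at day 7. With the floor at 200 they were 1.97 and 2.39, and without leg day 0 array 3 the first was 3.17. Nupr1 was thus called higher in both comparisons. At day 0, 6.33% of the probe sets tested were called, 3.93% higher and 2.4% lower in EOM, and at day 7, 4.95% were called, 3.31% higher and 1.63% lower. Over 3882 genes with 1 probe set each, the median difference was 0.07 and 0.05. When the 6 arrays of day 0 were fitted alone the difference was no longer called (adjusted p = 0.0576).

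From day 0 to day 7, Nupr1 moved by 0.03 ± 0.56 in leg (adjusted p = 1 by limma) and by 0.29 ± 0.56 in EOM (adjusted p = 0.953 by limma). Neither change passed the test, and 0.81% and 1.87% of the probe sets tested were called in these comparisons.

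At the later ages the EOM minus leg difference is a description, because these arrays also served the rule. It was 2.36 at day 14, 1.81 at day 21, 2.17 at day 28 and 0.51 at day 45. All EOM arrays stood above all leg arrays at days 14, 21 and 28, by only 0.02 at day 21, and the arrays overlapped at day 45. How many other genes separated in this way at any age was not counted, so the gaps only describe these arrays. The late change in EOM was lower than that in leg by 1.60 ± 0.65 on the log2 scale. A rise in leg only describes Nupr1 in part, since leg at day 45 came to a level at which EOM had stood since birth.

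Arrays numbered 3 were the highest of their group for Nupr1 in 10 of the 12 groups, and lay on average 0.50 above the group mean, against -0.19 and -0.31 for numbers 1 and 2. Pdk4 showed the opposite order, with number 3 the lowest in 11 of 12 groups. Nupr1 depended on leg array 3 for its place: without it the leg mean at day 45 was 9.84, under the level of 10 that the rule asks for. Without EOM day 45 array 3, Nupr1 missed the EOM limit. It met the rule in the other 22 of the 24 cases in which 1 array was left out. Without any array numbered 3, EOM was still higher than leg by 2.98 at day 0 (adjusted p = 0.00388 by limma) and 3.13 at day 7 (adjusted p = 0.00361 by limma).

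Of the 4736 genes, 41 had a leg mean at day 45 that stood 1.0 or more above each of days 14, 21 and 28, and 12 of the 41 reached the level of 10. For 10 of these 12 genes the EOM mean at day 45 was also above the mean of EOM days 14, 21 and 28, by 0.55 to 2.21. EOM was not set against each of these ages as leg was, so these values need not be late rises. The 10 were Gpx3, RT1-Da, Cd24, Grb14, Lhb, Myoc, Gsta1, Slc25a14, Xdh and Cd55. Cd24, a small surface glycoprotein, had the largest change in EOM of the 10 (2.21), with 12.10 in leg and 11.72 in EOM at day 45. Cd55, which shields cells from complement, followed with 1.67, and Xdh, the xanthine dehydrogenase, with 1.16 and a level of 11.19 in EOM against 10.32 in leg. RT1-Da, a class II histocompatibility chain, reached 12.88 in leg and 12.94 in EOM, and Myoc, a secreted glycoprotein, reached 11.17 and 11.71. In EOM the mean of RT1-Da was higher at day 21 (13.19 ± 1.55) than at day 45. The remaining genes were Pdk4 and Nupr1. Another 10 genes met both change limits at a leg level under 10: Cp, Prpf3, Sh3gl3, Slc18a2, P2ry6, Serpina3m, Pgm3, Nrgn, Ly6l and Rest.

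**Figure D2:**
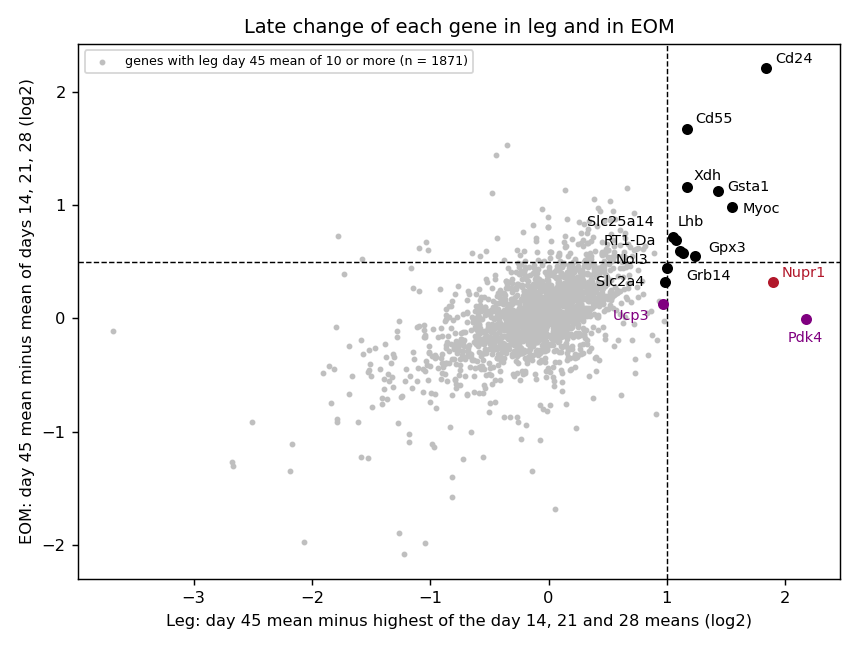
Late change of the 1871 genes with a leg day 45 mean of 10 or more. The horizontal axis is the leg day 45 mean minus the highest of the leg day 14, 21 and 28 means, and the vertical axis is the EOM day 45 mean minus the mean of EOM days 14, 21 and 28, both in log2 units. Dashed lines are the limits of the rule at 1.0 and 0.5. Nupr1 (red) and Pdk4 (purple, left out by name) are the points in the lower right field, and Nol3, Slc2a4 and Ucp3 lie just left of the limit.

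Genes close to the limits give the scale of the choice. Nupr1 itself cleared the leg limit by a wide margin, with a rise of 1.90 over the highest earlier mean, but its mean of 10.14 only just passed the level of 10. Nol3, a repressor of cell death in muscle, missed the leg limit with a rise of 0.998, from 10.89 ± 0.34 at day 28 to 11.89 ± 0.11 at day 45. Slc2a4, the insulin-responsive glucose transporter, missed it with 0.98, from 12.75 ± 0.14 at day 21, its highest earlier mean, to 13.73 ± 0.19 at day 45. Its EOM mean changed by 0.32. Gpx3, a secreted glutathione peroxidase, and Grb14, an adaptor that restrains the insulin receptor, missed the EOM limit with 0.55 and 0.57. Cp, the copper protein ceruloplasmin, and Slc18a2, a vesicular amine transporter, had leg levels of 9.45 and 9.40.

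The genes left out by name were Pdk4, the kinase that shuts down pyruvate dehydrogenase in fasting, Ucp3, a mitochondrial carrier protein of muscle, and Chad, a cartilage matrix protein. Pdk4 read 9.85, 10.95 and 9.61 in leg at day 28 and 12.99, 12.39 and 11.88 at day 45, while its EOM mean was 10.14 ± 0.41 at day 28 and 10.01 ± 1.10 at day 45. At day 45 all 3 leg arrays of Pdk4 stood above all 3 EOM arrays. The pattern of Pdk4 at birth was the reverse of that of Nupr1, with 9.97 ± 0.34 in leg and 6.88 ± 0.33 in EOM, where 1 array was at the floor. Ucp3 rose by 0.97 in leg, to 11.96 ± 0.30, short of the limit. Chad reached only 9.37 ± 0.18 in leg, and its EOM mean was 0.91 higher late.

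**Figure D3:**
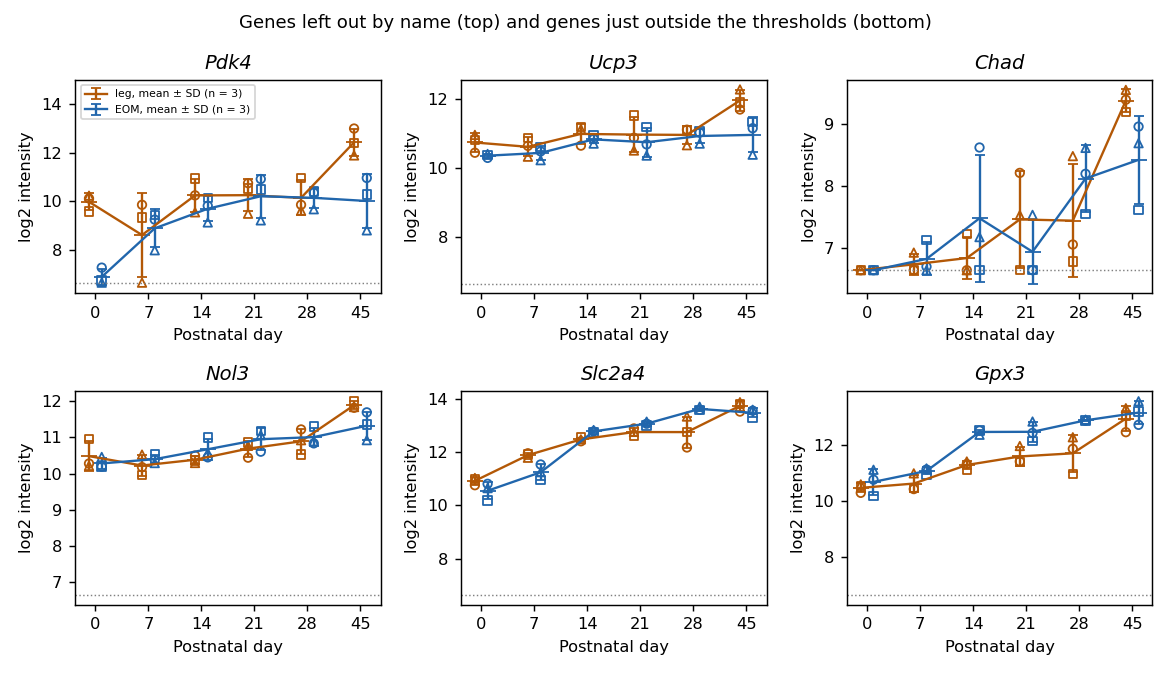
Log2 intensity against postnatal day for the genes left out by name (top: Pdk4, Ucp3, Chad) and for Nol3, Slc2a4 and Gpx3 (bottom), in leg (orange) and EOM (blue), with single arrays as open symbols, means joined by lines and bars of 1 SD (n = 3). The dotted line is the floor, and vertical scales differ between panels. Gpx3 shows a rise late in leg to 12.96 and one in EOM to 13.18, while Pdk4 reaches 12.42 in leg and 10.01 in EOM.

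Other genes known to answer to cell stress were also looked at. A list of 27 was drawn up once the member was known, and 19 were tested. In leg at day 45 against days 14, 21 and 28, 0 of the 19 were higher and 3 were lower by limma, with 5.46% of all probe sets called higher and 5.55% lower. At an unadjusted p under 0.05 the counts in the list were 3 higher and 3 lower. The 3 were Hspa5, the main chaperone of the endoplasmic reticulum (-0.63 ± 0.15), Pdia3, a disulfide isomerase of the same compartment (-0.82 ± 0.20), and Gadd45a, a growth arrest protein (-0.82 ± 0.17). The list median was 0.01 against 0.14 for all 3882 genes. Ddit3, a transcription factor that acts downstream of Atf4, had a difference of 0.66 and Atf3 of -0.03, and neither passed. In EOM against leg at days 0 and 7, 0 of 19 were called either way by limma, with list medians of 0.20 and 0.18. At an unadjusted p under 0.05, 4 were higher and 1 lower at day 0, and 1 higher and 2 lower at day 7. Ddit3 had the largest differences of the list there, 1.43 at day 0 and 1.10 at day 7.

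Other lists held 0 to 4 genes called late in leg, beside 11% of all probe sets. Of 24 genes of fatty acid oxidation, Cd36, a fatty acid transporter, was higher in leg at day 45 (0.99 ± 0.29, adjusted p = 0.0256 by limma). Decr1, an enzyme of unsaturated fatty acid breakdown, was lower (-0.83 ± 0.22). Pdk4 and Ucp3, both left out by name, were also called higher. Pdk4 met the values of the rule, which required such a rise, so its call is no independent test. Genes of glycolysis and glycogen use had 4 of 16 higher and 0 lower. The 4 included Pfkfb1, which sets fructose bisphosphate (1.31 ± 0.40), Phka1, a subunit of phosphorylase kinase (1.16 ± 0.37), and Slc2a4 (1.07 ± 0.16). Among 12 glucocorticoid-responsive genes Glul, the glutamine synthetase, was higher (1.01 ± 0.18) and Gadd45a lower, and among 8 clock genes the repressor Nr1d1 was higher (0.67 ± 0.21). Of 13 adult fast fibre genes Myh1, the IIX myosin, was higher (1.38 ± 0.28). Of 10 slow fibre genes Casq2, a calcium store protein (-1.12 ± 0.19), and Tpm3, the slow tropomyosin (-0.66 ± 0.16), were lower.

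Of 14 calcium handling, 9 protein turnover and 3 polyamine and androgen-responsive genes, 0 were called in that comparison by limma, with list medians of 0.10, -0.09 and -0.43. At an unadjusted p under 0.05 they held 1, 3 and 1 genes. When the arrays were brought to a common median, Cd36, Nr1d1, Phka1, Phkg1 and Pfkfb1 no longer passed. In all, 734 of 6667 probe sets (11%) were called in leg late, 364 higher and 370 lower, and 166 higher and 522 lower after median scaling, which moved the median of all probe sets by -0.17. Without leg day 45 array 1 or 2 the count was 323 or 378.

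In EOM the same late comparison called 2 genes of the pathway lists and 4 of the cell marker lists. Mybpc2, a myosin-binding protein of fast fibres, was higher (0.97 ± 0.27) and Cdkn1a, an inhibitor of the cell cycle that belongs both to the turnover and to the stress list, was lower (-2.36 ± 0.47). Of the cell markers, Cnn1 of smooth muscle (1.73 ± 0.39) and Epcam of epithelium (1.44 ± 0.40) were higher, and Lcn2 of glands (-2.47 ± 0.47) and Col2a1 of cartilage (-2.56 ± 0.34) were lower. Mybpc2 did not pass after median scaling, nor Epcam after quantile normalization. EOM day 45 against days 14, 21 and 28 had 211 probe sets called (3.16%), 97 higher (1.45%) and 114 lower (1.71%), or 59 and 178 after median scaling. Without EOM day 45 array 3 the count was 549, and it was 59 or 78 without array 2 or 1. The late changes of EOM and leg themselves differed for 24 probe sets (0.36%), among them those of the genes Gadd45a, Myh3 and Myh8 of these lists. That count was 62 without EOM day 45 array 3 and 11 without leg day 45 array 1.

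Markers of other cell types moved with the muscles, and in bulk RNA fewer cells of a type cannot be told apart from less RNA per cell. Of 9 tested markers of epithelium and glands, 8 were higher in EOM at day 0 and 1, Krt1, was lower. At day 7, 5 were higher, with Krt19 at 3.80 ± 0.48 and Epcam at 3.56 ± 0.49. The summed intensity of these markers was 26777 to 37430 in EOM against 3560 to 6554 in leg at day 0, and 7664 to 17100 against 2391 to 5550 at day 7. At day 14 it was 2430 to 2932 in EOM and 2265 to 4100 in leg, at day 21 it was 2914 to 7068 against 2182.5 to 2305, at day 28 it was 1942 to 2159 against 2189 to 2472, and at day 45 it was 1878 to 4024 against 1557 to 2470. Their part in the difference of Nupr1 between the muscles was not tested.

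Markers of Schwann cells and axons summed to more in EOM than in leg at every age, for example 36115 to 44026 against 29716 to 34246 at day 7. At day 7, 5 of the 11 were higher, including Sox10, which was at the floor on all 3 leg arrays. Their part in the difference of Nupr1 was not tested. Of 9 tested leukocyte markers 0 were called between the muscles at days 0 and 7 by limma, and also 0 at an unadjusted p under 0.05.

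Late in leg, the sum of the 11 leukocyte markers on the array was 8609 to 11910 at day 45, above the 4742 to 6834 of days 14 to 28. Lyz2, a lysozyme of myeloid cells, was the 1 of 9 tested that was higher (1.04 ± 0.33, adjusted p = 0.0404 by limma), and it did not pass after median scaling or quantile normalization. In EOM at day 21 the leukocyte sum ran from 7868 to 25671. The array of that group with the lowest Nupr1 was number 2, and number 2 was the lowest for Nupr1 in 6 of the 12 groups. Cartilage, tendon, adipocyte, erythroid and vessel lists had 1, 0, 0, 0 and 0 members higher in leg late. The 1 was Chad, a gene left out by name. Each of these lists but the erythroid had 1 member lower. The part of these cells in the rise of Nupr1 was not tested.

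**Figure D4:**
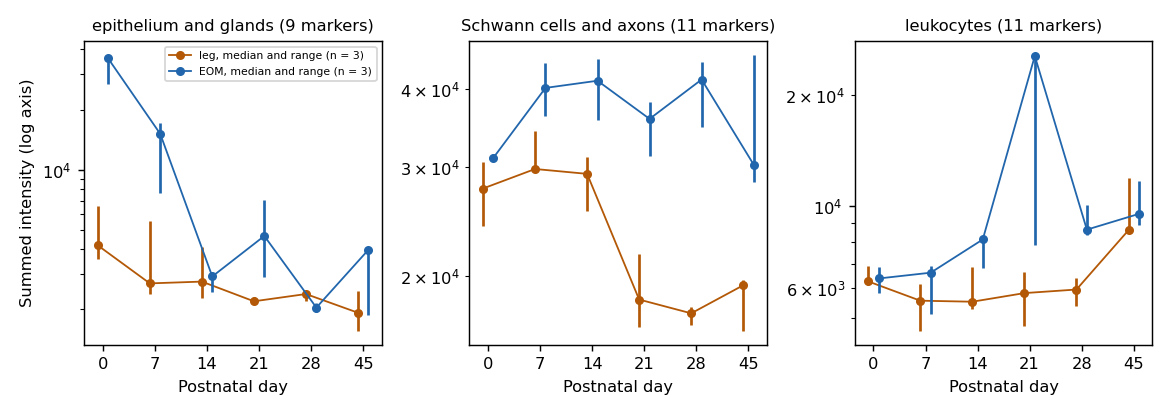
Summed intensity (log axis) of 9 epithelial and gland markers, 11 Schwann cell and axon markers and 11 leukocyte markers against postnatal day, in leg (orange) and EOM (blue). Points are medians and bars the lowest and highest of 3 arrays. Epithelial markers are far higher in EOM at days 0 and 7 than in leg, and closer at the later ages, and leukocyte markers in leg are at their highest at day 45.

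Markers of the labelled tissues were present. Skeletal muscle markers summed to 39254 or more in leg and 38638 or more in EOM on every array, although the probe set that stands for Ckm was at the floor on all arrays of days 21 and 28. Markers of EOM summed to 42192 to 77158 in EOM at day 45 against 4071 to 5714 in leg. At day 0 the same list, which holds the embryonic and perinatal myosins Myh3 and Myh8, did not mark EOM, with 28307 to 32191 in EOM against 34783 to 47545 in leg. Nor did it at day 7, with 33535 to 39420 in EOM against 45409 to 50460 in leg.

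The genes whose 12 group means ran most like those of Nupr1 were found by Pearson correlation among 3881 other genes, a measure chosen after the values of Nupr1 were seen. Cby1, an antagonist of beta-catenin, came first (r = 0.97), followed by RT1-S3, a class Ib histocompatibility gene (r = 0.94), Tom1l2, a protein of vesicle sorting (r = 0.93), P2ry14, a receptor for UDP-sugars (r = 0.93), and Dact2, a modulator of Wnt signalling (r = 0.92). The 12 points share arrays and age, so the values only describe likeness of shape. The shape was alike but the size was not. Cby1 had a leg rise of 0.23 at day 45 and an EOM mean 0.39 above leg over days 14 to 28, and Dact2 had 0.62 and 1.68. None of the 5 met the rise that the rule asks for.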

How the data were processed

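Total RNA of rat EOM and leg was hybridised to Affymetrix RG-U34A arrays, per the labels. The deposited intensity values are linear, with 44 zeros, and had been scaled by the authors to a common trimmed mean (1499.8 between the 2nd and 98th percentiles, as the values show). The summary software was not given in the sources used here. Medians of the arrays ran from 418.7 to 652.2. Arrays, 3 a group, limit the precision.

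Values were floored at 100 (9.85% to 23.4% of an array lay at or under it), and the 59 control probe sets were left out. Of 8740 others, 7006 had 1 symbol, 308 several and 1426 none in the platform annotation of 2016. Tests were limited to the 6667 probe sets with at least 3 arrays above an intensity of 322, the 40th percentile. Nupr1 passed, on 18 EOM and 10 leg arrays. Where a gene had several probe sets, that with the highest mean log2 value stands for it. A model of 12 group means for the 36 arrays was fitted in R 4.3.3 with limma 3.58.1 (trended prior, 24 residual degrees of freedom), with Benjamini-Hochberg adjustment within each comparison at 0.05. Errors beside group means are SDs and those beside differences are standard errors of that fit, whose variance is pooled over the groups. The fits were also run on simulated normal values with independent arrays, the same SD in every group and no floor. That run does not cover floored values, unequal spreads or arrays that correlate by number. Figures used matplotlib 3.10.9 in python 3.11.15.

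The member, the lists and the tests were chosen with earlier results of these data known. By the rule for named genes, each member is named with its value on every array, along with the nearest genes at each limit, the genes left out by name and up to 3 list genes each way past the test. The stress list, the likeness measure and the removal of all arrays numbered 3 were chosen after the member was known. Same-numbered EOM and leg arrays deviated together at day 7 (correlations of 0.17, 0.13 and 0.30) and day 14 (0.12, 0.11 and 0.16). They also did so at day 21 (0.10, 0.15 and 0.37). The correlations were also positive at day 0 (0.05, 0.10 and 0.05), and of mixed sign at day 28 (0.10, -0.01 and 0.25) and day 45 (-0.10, 0.08 and 0.10). Same-numbered arrays of different groups also correlated (medians of 0.08, 0.07 and 0.15). The median for arrays of different number and group was -0.05. Same-numbered EOM arrays of days 7 and 0 correlated at 0.09, 0.13 and 0.35, and those of leg at 0.13, 0.07 and 0.12. The labels give no pairing of EOM with leg, and these values do not single one out. The fits used no replicate block, and alternatives are given in the closing section.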

Additional observations from a re-analysis of the deposited data

Results flagged for a closer look

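Among the listed genes, the late change (day 45 against the mean of days 14, 21 and 28) differed between the muscles by limma's test of the difference for Myh8, the perinatal myosin (4.05 on the log2 scale, EOM minus leg), Myh3, the embryonic myosin (2.59), and Gadd45a, a growth arrest protein (1.06). The late change in leg was -3.86 for Myh8, -2.71 for Myh3 and -0.82 for Gadd45a. After each array was scaled to the same median, Gadd45a did not pass (adjusted p = 0.0771 by limma). Nupr1 was not tested here, because the rule used both late changes. Pdk4 also met the values of the rule and was among the 24 fatty acid oxidation genes fitted here, so its outcome is no independent test. Of the 24 genes, 0 were called either way.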

How the results depend on the processing

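The membership of Nupr1 was less stable than its difference between the muscles. The rule found 1 gene as given. It found 2 with arrays brought to a common median (Gpx3 added), with any probe set of a gene allowed or the representative taken by linear mean (Cd74 added), and with the 3 named genes kept (Pdk4 added). With group medians it found 5, with no array numbered 3 it found 7, neither set holding Nupr1, and with an EOM limit of 0.25 it found 0. Leaving out 1 array at a time gave 1 to 6 genes.

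Between EOM and leg, Nupr1 was higher in EOM under each setting run, with an adjusted p of 0.000544 to 0.0300 at day 0 and 0.00117 to 0.0212 at day 7 when 1 array was left out. With only the 6 arrays of day 0 the count of members called was 0 (adjusted p = 0.0576). A replicate block, 1 effect of array number shared by all groups, gave adjusted p = 0.00045 and 0.000186 by limma at days 0 and 7. It changed no call of Nupr1. The block did not pair EOM with leg arrays within an age, so it cannot say what such a pairing would change. The first-week change in leg, near 0, turned sign with the floor at 50 (-0.069) or 200 (-0.13) and ranged from -0.38 to 0.64 with 1 array left out (-0.30, -0.26 and -0.38 without leg day 0 replicate 2, day 0 replicate 1 and day 7 replicate 3).

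Counts of probe sets called moved more. With only the arrays compared they were 19 for leg day 7 against day 0 (54 in the main fit) and 25 for EOM day 7 against day 0 (125). For the late changes of leg and EOM they were 483 (734) and 61 (211), and for their difference 8 (24). Fewer arrays inform the variance in these fits, and the calls shared with the main fit were not counted. EOM day 7 against day 0 gave 198 with quantile normalization and 73 with no array numbered 3, and the latter gave 449 for the late change in EOM and 99 for the late difference. The late difference gave 10 with the floor at 50 and 48 with the replicate block. Over single arrays left out the counts ran from 32 to 58, 72 to 97, 278 to 389 (EOM against leg at day 0, 422 in all), 191 to 294 (day 7, 330 in all), 323 to 762, 59 to 549 and 11 to 62. EOM against leg at day 0 had 262 higher and 160 lower, or 198 and 205 after median scaling, which moved the median of all probe sets by -0.13. The cause of these shifts was not tested. Leg arrays of Nupr1 near the floor may understate its difference from EOM.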
